A study of Canis lupus familiaris with 8 samples.

Results

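The osteoblast transcription factors described here are RUNX1, RUNX2, RUNX3, SP7, DLX3, DLX5, DLX6, MSX1 and MSX2, listed by gene symbol, and 8 of the 9 were measured among the 15947 genes with a probe set of their own. RUNX3 had no probe set under its symbol alone and is not analysed here. Each of the other members had 1 probe set, meaning several short probes read together as 1 value. The study measured total RNA of dog upper jaw on 8 Affymetrix whole-transcript arrays and asked how moving a tooth into a healing bone defect changes gene expression there. Group C was sound alveolar bone, which is the bone around tooth roots, taken beside upper premolars. Groups D2 and D6 were tissue that had grown in a surgical defect together with the bone next to it, at 2 and 6 weeks if the digit in the group name is the week. DT6 was tissue of the same kind, read as 6 weeks, in which a tooth was also protracted (moved forward). Groups D2, D6 and DT6 all carried the defect, and C carried neither defect nor tooth movement. Every group had 2 arrays, and the labels give no breed, age or animal for an array. Whether the arrays of a group came from separate dogs is therefore unknown, and the p-values rest on a spread between arrays that may be technical. The digit for weeks and the log base of the values are readings of the labels and of the numbers.

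Osteoblasts are the cells that lay down bone. Commitment of mesenchymal cells to this fate depends on RUNX2, a factor with the runt DNA-binding domain, and then on SP7, also called osterix, a zinc-finger protein that acts after RUNX2. In the jaws the bone-forming mesenchyme comes from neural crest, and the homeobox genes of the DLX and MSX families pattern it during development. BMP signals induce several of them, and DLX5, DLX3 and MSX2 can bind regulatory elements of RUNX2 and of bone matrix genes, with MSX2 often acting as a repressor where DLX5 activates. RUNX1 and RUNX3 are best known from blood cells, and RUNX1 is also found in skeletal progenitors.

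Levels are on the deposited log2 scale, and a difference is given as log2 ± limma's moderated standard error for 2 arrays against 2. A gene passed where the two-sided limma p, adjusted by Benjamini-Hochberg over all 15947 genes, was below 0.05. Array medians lay between 6.25 and 6.31, and replicates correlated across genes with r between 0.974 and 0.986. COL1A1, a collagen chain of bone and of other connective tissue, lay between 13.00 and 13.72 in every array. The 8 osteocyte genes averaged 8.34 and 8.51 in C and 7.27 to 8.37 in the defect arrays. Markers of other tissues were uneven. The 18 measured stratified epithelium genes averaged 7.47 in D2 array 2 and 8.68 in D6 array 1 against 5.17 to 5.62 in the other 6 arrays, and 0 of them passed in limma in D2, D6 or DT6 against C, with 1, 0 and 0 at an unadjusted p under 0.05. The 19 airway and gland epithelium genes averaged 8.23 to 8.76 in D2 and 8.30 to 8.44 in DT6 against 5.11 to 5.75 in C and D6. In this list 18 rose in D2 against C, 0 in D6 and 13 in DT6.

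MSX2 had the widest range of the 8 members. It is a homeobox repressor of the cranial sutures and of tooth and jaw mesenchyme. Its values were 7.32 and 7.06 in C, 5.96 and 6.39 in D2, 5.80 and 6.60 in D6, and 5.97 and 5.26 in DT6. All 6 defect arrays lay below both C arrays, and DT6 array 2 was the lowest of all. MSX2 fell in DT6 against C by 1.58 ± 0.31 on the log2 scale, which is 2.98-fold lower (limma, adjusted p = 0.0345, 95% interval −2.29 to −0.87). Without C array 1 the difference was −1.45 (adjusted p = 0.215), without C array 2 it was −1.71 (adjusted p = 0.107) and without DT6 array 2 it was −1.22 (adjusted p = 0.119). The call also ended with the replicate number as a block (adjusted p = 0.0544) and with array weights (adjusted p = 0.138), both at −1.58.

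In the other defect groups the MSX2 difference did not pass. It was −1.01 ± 0.31 in D2 against C (2.02-fold, adjusted p = 0.0843) and −0.99 ± 0.31 in D6 against C (1.99-fold, adjusted p = 0.16). The replicates were far apart at 6 weeks, by 0.80 in D6 and 0.71 in DT6, against 0.26 in C. The values of D2, D6 and DT6 overlapped one another. DT6 against D6 gave −0.58 ± 0.31 with a 95% interval of −1.29 to 0.12.

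MSX1, the other MSX gene and a factor of tooth mesenchyme, varied much less. It had values of 7.01 and 7.01 in C, 6.78 and 6.95 in D2, 6.79 and 7.16 in D6, and 6.84 and 6.68 in DT6. Of the 6 defect arrays 5 lay below both C arrays, and D6 array 2 lay above them. The differences against C were −0.14 ± 0.16 in D2, −0.03 ± 0.16 in D6 and −0.25 ± 0.16 in DT6, with adjusted p values of 0.663, 0.951 and 0.481. Within each array the log2 value of MSX1 minus that of MSX2 was −0.31 and −0.05 in C and between 0.56 and 1.42 in the defect arrays. The pair differed unequally from C, and this difference was chosen after the values were seen and was not tested. Both genes were higher in array 2 than in array 1 of D2 and D6, and lower in array 2 of DT6.

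**Figure D1:**
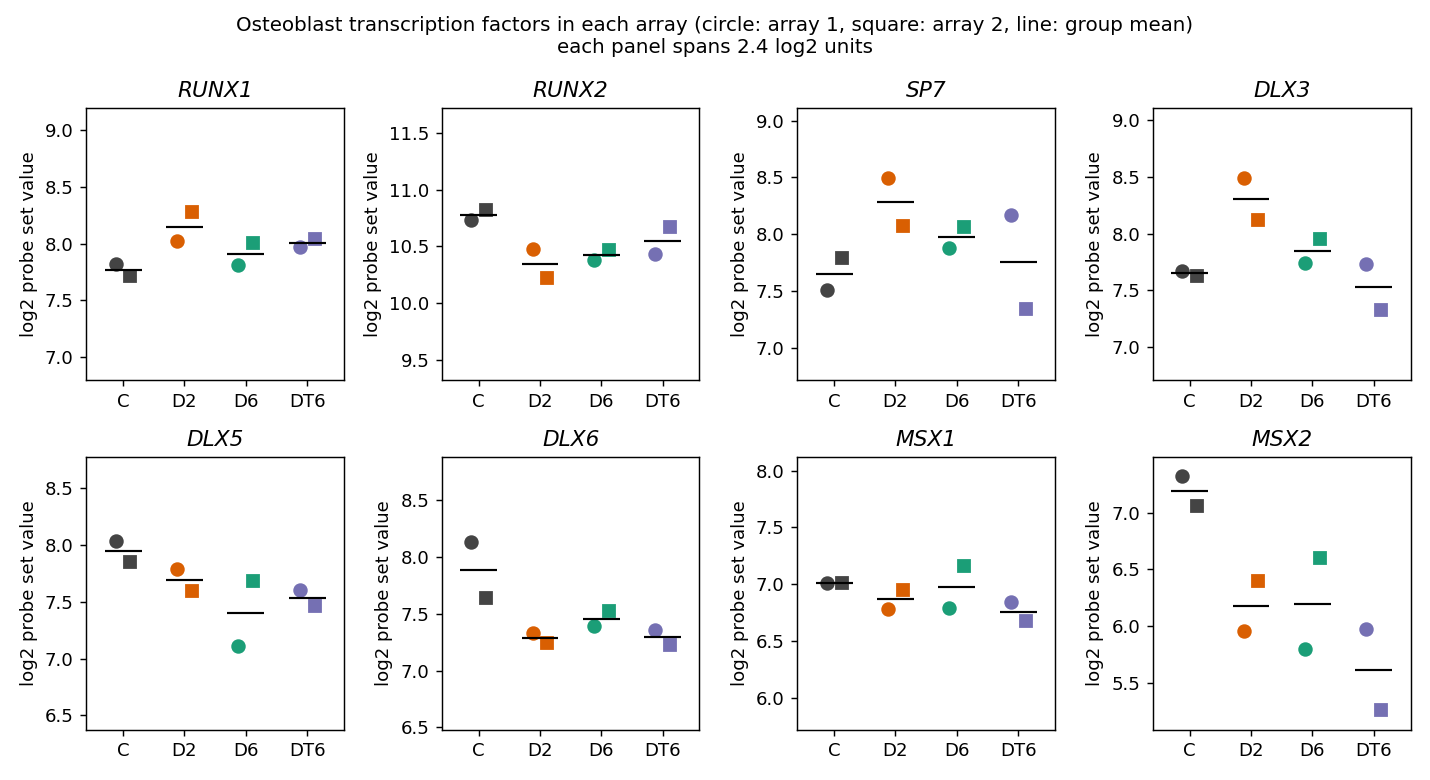
Log2 probe set value (vertical axis) of each measured member in the 4 groups (horizontal axis), with circles for array 1, squares for array 2 and a line for the mean of the 2 arrays. MSX2, RUNX2, DLX5 and DLX6 lie below both C arrays in all 6 defect arrays. The group means of RUNX1, SP7 and DLX3 are highest in D2.

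The DLX genes encode homeobox activators that lie in the genome as neighbouring pairs. In the RefSeq table of the dog assembly UU_Cfam_GSD_1.0 the DLX5 and DLX6 genes overlap, and DLX3 lies next to DLX4. Whether the probe sets read the shared stretch is not known here. The array annotation gives the DLX6 probe set no identifier, so DLX6 is named by its symbol alone. DLX6 had values of 8.13 and 7.64 in C, 7.33 and 7.24 in D2, 7.39 and 7.53 in D6, and 7.36 and 7.23 in DT6. All defect arrays lay below both C arrays, and they differed among themselves by less than the 0.49 between the C arrays. DLX6 differed from C by −0.60 ± 0.17 in D2 (adjusted p = 0.0705), −0.43 ± 0.17 in D6 (adjusted p = 0.261) and −0.59 ± 0.17 in DT6 (adjusted p = 0.121). In D2 it passed without C array 2 (−0.85, adjusted p = 0.0334) and was −0.36 without C array 1 (adjusted p = 0.288).

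DLX5, which promotes osteoblast maturation, gave 8.04 and 7.85 in C, 7.79 and 7.59 in D2, 7.11 and 7.68 in D6, and 7.60 and 7.46 in DT6. The defect arrays again all lay below both C arrays, with D6 array 1 the lowest. Against C it differed by −0.25 ± 0.19 in D2, −0.55 ± 0.19 in D6 and −0.41 ± 0.19 in DT6, with adjusted p values of 0.491, 0.207 and 0.323. Without D6 array 1 the D6 difference was −0.26, and without D6 array 2 it was −0.83.

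DLX3, which acts in bone, teeth, hair and skin, went the other way at 2 weeks. Its values were 7.67 and 7.63 in C, 8.49 and 8.12 in D2, 7.74 and 7.95 in D6, and 7.74 and 7.33 in DT6. Both D2 arrays were above the other 6 arrays, and DT6 array 2 was the only defect array below C. The D2 difference was 0.66 ± 0.18 (1.58-fold, adjusted p = 0.0617, 95% interval 0.24 to 1.07). It passed in the fit of D2 and C alone (adjusted p = 0.0357) and without either DT6 array (adjusted p = 0.0333 and 0.033), which leave the difference as it is and move only the spread, and not without either D2 array (0.47 and 0.84, adjusted p = 0.368 and 0.101). DLX3 is also a gene of differentiating keratinocytes. The stratified epithelium mean was 5.40 and 7.47 in the D2 arrays, 8.68 and 5.17 in D6, 5.62 and 5.56 in DT6, and 5.58 and 5.26 in C, and its part in the DLX3 values was not tested. Without D2 array 2 and D6 array 1, the arrays rich in these markers, the D2 difference was 0.84 (adjusted p = 0.118).

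The other DLX genes on the array, DLX1, DLX2 and DLX4, were on a list of jaw and bone transcription factors. DLX1 had 6.73 and 6.55 in C and 5.73 to 6.33 in the defect arrays. DLX2 had 7.17 and 6.96 in C against 6.22 to 6.66. DLX4 had 5.04 and 5.10 against 4.38 to 4.82. In 5 of the 6 DLX genes, all but DLX3, every defect array lay below both C arrays, as deposited and also after quantile normalization or median centring, where 10.5% of all genes had this pattern as deposited. The DLX genes were grouped after their values were seen.

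RUNX2, the factor that osteoblast commitment depends on, gave 10.73 and 10.82 in C, 10.47 and 10.22 in D2, 10.38 and 10.47 in D6, and 10.43 and 10.67 in DT6. All 6 defect arrays lay below both C arrays, and DT6 array 2 came closest to them. The differences were −0.43 ± 0.15 in D2 (1.35-fold, adjusted p = 0.125), −0.35 ± 0.15 in D6 (adjusted p = 0.298) and −0.23 ± 0.15 in DT6 (adjusted p = 0.499). After quantile normalization the D2 difference was −0.50 and passed (adjusted p = 0.0405). The identifier that the array annotation pairs with the RUNX2 symbol was not found in the RefSeq table, so RUNX2 is named by its symbol alone. In that table RUNX2 overlaps SUPT3H.

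SP7 lay higher in most of the defect tissue while RUNX2 lay lower. Its values were 7.51 and 7.79 in C, 8.49 and 8.08 in D2, 7.88 and 8.07 in D6, and 8.17 and 7.34 in DT6. Of the defect arrays 5 lay above both C arrays, and DT6 array 2 lay below both. The difference was 0.63 ± 0.26 in D2 (1.55-fold, adjusted p = 0.186), 0.32 ± 0.26 in D6 (adjusted p = 0.608) and 0.10 ± 0.26 in DT6 (adjusted p = 0.886). The DT6 difference was 0.52 without DT6 array 2 and −0.32 without DT6 array 1. Within an array, SP7 minus RUNX2 was −3.22 and −3.03 in C, −1.98 and −2.14 in D2, −2.50 and −2.40 in D6, and −2.26 and −3.33 in DT6. This pair of genes was also chosen after the values were seen, and their unequal shift was not tested.

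RUNX1 gave 7.82 and 7.71 in C, 8.02 and 8.28 in D2, 7.81 and 8.005 in D6, and 7.97 and 8.04 in DT6. The D2 and DT6 arrays lay above both C arrays, and D6 array 1 lay between them. The differences were 0.38 ± 0.14 in D2 (1.30-fold, adjusted p = 0.14), 0.14 ± 0.14 in D6 (adjusted p = 0.691) and 0.24 ± 0.14 in DT6 (adjusted p = 0.441). RUNX1 is a gene of blood cells, and the 18 measured myeloid genes averaged 7.16 and 7.32 in C and 7.72 to 8.37 in defect tissue. In that list 8 rose and 1 fell in D2 against C, 7 rose and 1 fell in D6, and 6 rose in DT6. The 20 lymphocyte genes averaged 5.19 to 5.28 in C and 5.30 to 5.76 in defect tissue. The part of these cells in the RUNX1 values was not tested. In bulk tissue, fewer cells of a type and less RNA per cell cannot be told apart, which holds for every member.

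Set against the whole array, the members' counts were as follows. In D2 against C 0 of the 8 members passed in limma, where 8.40% of all genes did, and 6 had an unadjusted p under 0.05, where 23.8% of all genes did. The groups did not overlap for all 8 measured members, against 56.3% of genes. In D6 against C 0 passed (1.76% of genes), 4 had an unadjusted p under 0.05 (16.4%) and 6 did not overlap (48.6%). In DT6 against C MSX2 alone passed (3.04% of genes), 2 members had an unadjusted p under 0.05 (17.6%) and 6 did not overlap (41.6%).

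Between the defect groups no member passed. In D6 against D2 0 of 8 passed in limma (1.68% of genes), DLX3 alone had an unadjusted p under 0.05 (7.88%), with −0.46 ± 0.18, and 4 members did not overlap (43.3%). In DT6 against D2 0 passed, as did 0% of all genes, DLX3 again alone had an unadjusted p under 0.05 (6.22%), with −0.77 ± 0.18, and it alone did not overlap (32.8%). These comparisons share the D2 arrays. In DT6 against D6, which asks about tooth protraction at 6 weeks, 0 passed (1.52% of genes), 0 had an unadjusted p under 0.05 (6.52%) and 2 did not overlap (29.0%). The 2 were DLX3 at −0.31 ± 0.18 and DLX6 at −0.16 ± 0.17, both lower in DT6. Of the 19 airway and gland epithelium genes, 12 rose in DT6 against D6, with a list median of 2.74. In D6 against D2 13 of them fell, with a list median of −3.15. These comparisons thus also differ in tissue makeup, and its part in the members' values was not tested. The 95% intervals for DT6 against D6 ran from −0.23 to 0.42 for RUNX1, −0.22 to 0.47 for RUNX2, −0.82 to 0.38 for SP7, −0.73 to 0.10 for DLX3, −0.31 to 0.58 for DLX5, −0.56 to 0.23 for DLX6 and −0.59 to 0.15 for MSX1. The F test over the 4 groups was passed by 0 members (4.51% of genes), and 3 had an unadjusted p under 0.05 (18.3%), MSX2, DLX3 and DLX6. The lowest adjusted p in that test was 0.0793, for MSX2.

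**Figure D2:**
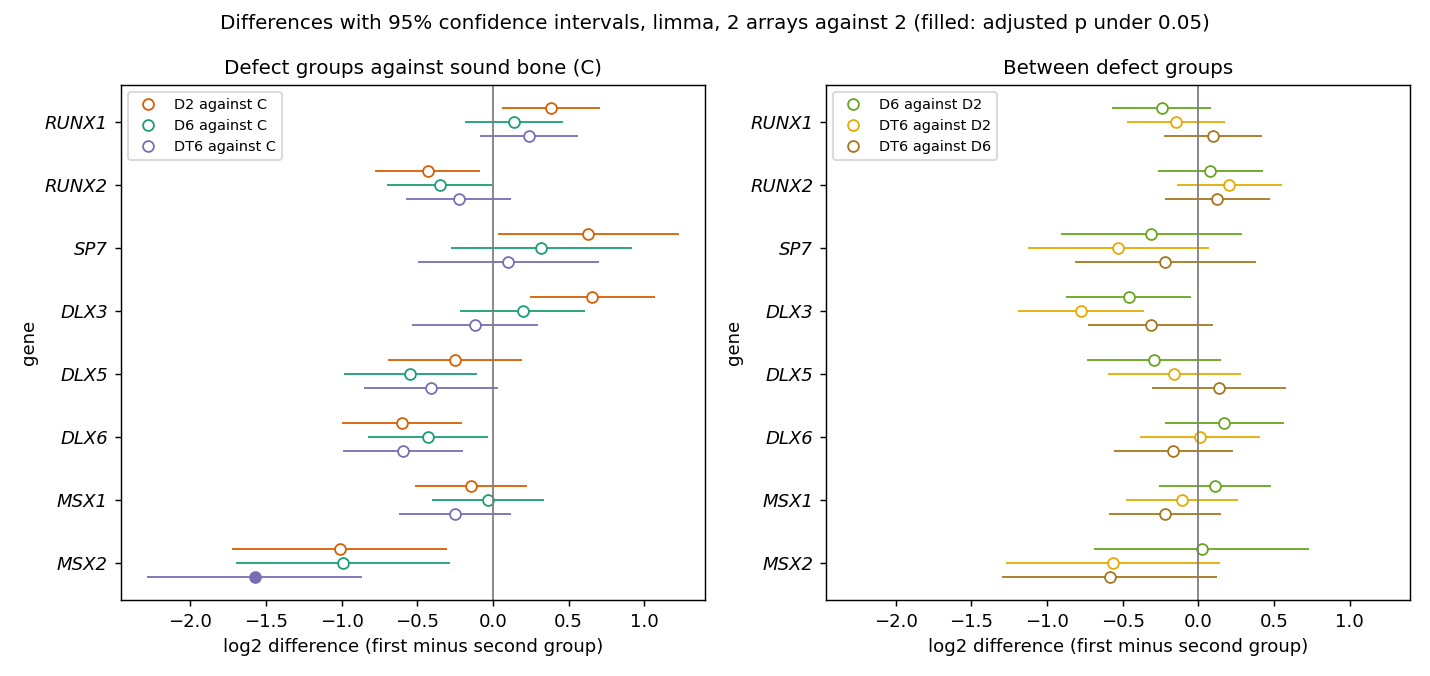
Log2 difference (horizontal axis, first minus second group) of each member (vertical axis) with its 95% confidence interval, limma, 2 arrays against 2, for each defect group against C and between defect groups. Filled points have an adjusted p below 0.05, which is MSX2 in DT6 against C, at −1.58.

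The mean of the 3 defect groups was also set against C, a comparison added after the values were seen. MSX2 fell by 1.19 ± 0.26 on the log2 scale (2.29-fold lower, adjusted p = 0.0251) and was the only one of the 8 members to pass, where 8.38% of genes passed. Without C array 1, C array 2 or D2 array 1 its adjusted p was 0.205, 0.0986 and 0.0568. DLX6 differed by −0.54 ± 0.14 (adjusted p = 0.0517), DLX5 by −0.40 ± 0.16 and RUNX2 by −0.34 ± 0.12. These 4 members had an unadjusted p under 0.05, as did 24.7% of genes, and they were also the 4 members with every defect array below both C arrays, as 10.5% of genes had. None of the 8 had every defect array above both C arrays, where 12.8% of genes had. DLX6 passed under 6 of the 19 alternatives.

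The order of the group means followed from these values. C had the highest mean of RUNX2, DLX5, DLX6, MSX1 and MSX2, and the lowest of RUNX1 and SP7. D2 had the highest mean of RUNX1, SP7 and DLX3, and the lowest of RUNX2 and DLX6. DT6 had the lowest mean of DLX3, MSX1 and MSX2, and D6 the lowest of DLX5. In this order no neighbouring groups differed past the threshold for any member. The SD pooled over the groups ran from 0.12 in RUNX1 to 0.42 in MSX2, with a median of 0.20 over the members and 0.18 over all genes. The range of the 4 group means had a median of 0.57 over the members and 0.33 over all genes.

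**Figure D3:**
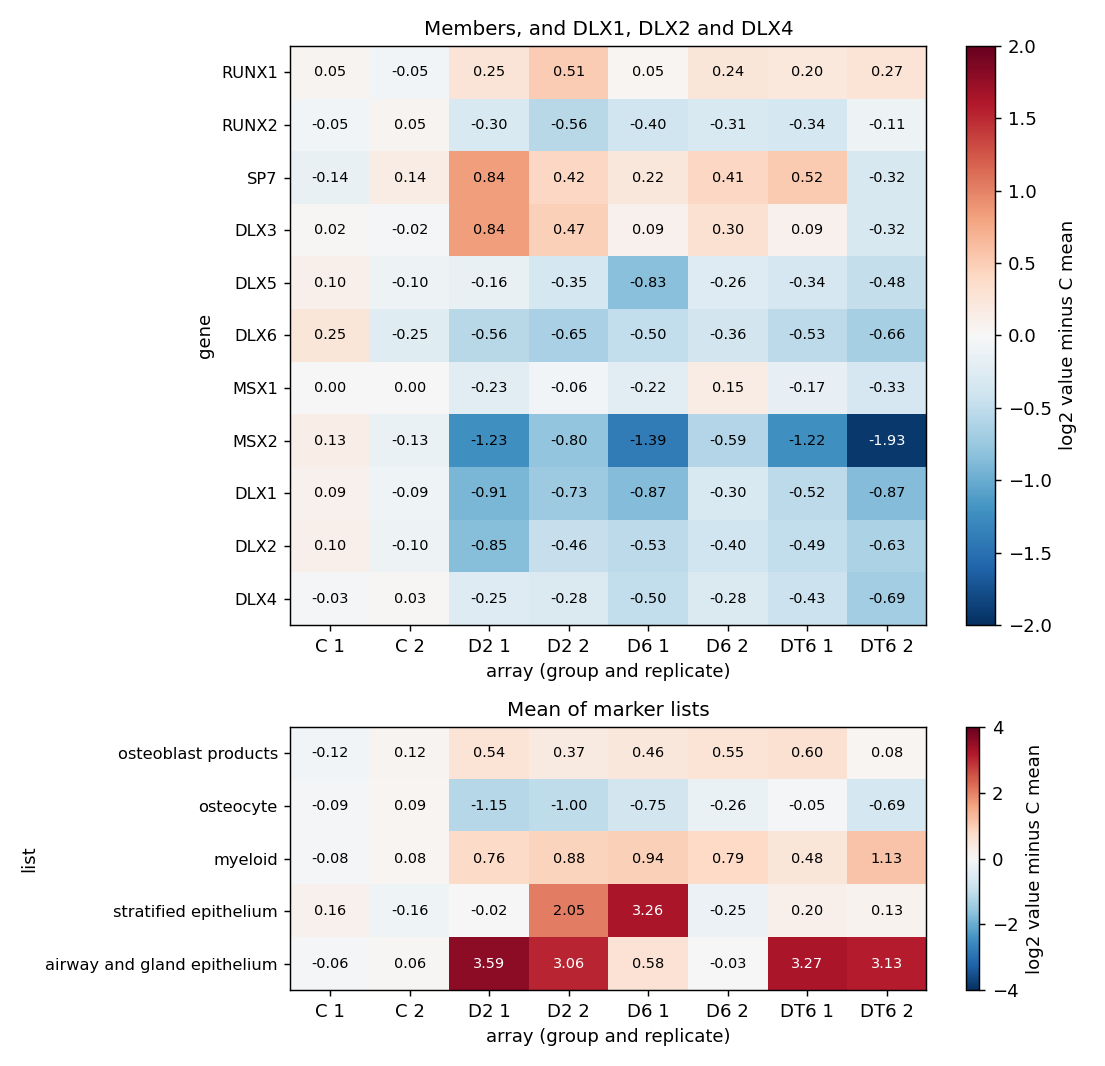
Log2 value of each array (columns) minus the mean of the 2 C arrays, for the 8 members with DLX1, DLX2 and DLX4 (upper panel) and for the mean of 5 marker lists (lower panel), with red above and blue below C. MSX2, RUNX2 and 5 of the 6 DLX genes lie below the C mean in all 6 defect arrays, and the epithelium lists are high in single arrays or groups.

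Some members moved together from array to array. SP7 and DLX3 had a Pearson r of 0.88 and a Spearman rho of 0.83 over the 8 arrays, and r was 0.89 after the group means were removed. Both were lowest in DT6 array 2 and highest in D2 array 1. Without the 2 arrays farthest from the SP7 median r was 0.58. Leaving out the extremes of 1 gene narrows its range and tends to lower r by itself. This value therefore cannot show how much of the likeness rests on these arrays. MSX1 and MSX2 had r = 0.83 and rho = 0.88, with r = 0.93 within groups and 0.94 without the 2 arrays farthest from the MSX1 median. DLX5 and DLX6 had r = 0.66 and rho = 0.67, with 0.60 within groups. Pairs across families were as much alike. DLX6 and MSX2 had r = 0.83 and rho = 0.79, with 0.46 within groups. DLX5 and MSX2 had r = 0.74 and rho = 0.81, with 0.68 within groups. RUNX1 and RUNX2 had r = −0.71, which was −0.03 without the 2 arrays farthest from the RUNX1 median. With 2 arrays a group, r with the group means removed rests on the replicate difference of each group, not on 8 separate values. All these r values are descriptions of arrays that share groups and tissue makeup, taken from 28 pairs of members.

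By the highest Pearson r over the 8 arrays, the genes most like MSX2 were TCEAL3 (r = 0.99, rho = 0.95) and CASTOR2 (r = 0.98, rho = 0.98). Those most like MSX1 were SERPINB13, a serpin (r = 0.98), and the laminin chain LAMA2 (r = 0.97). DLX6 was most like the potassium channel KCNK4 (r = 0.98) and CREB5 (r = 0.98), and DLX5 most like the ghrelin receptor GHSR (r = 0.94) and LOC403898 (r = 0.93). DLX3 was closest to the vesicle coat gene SEC31A (r = 0.98) and to NOTUM, a secreted enzyme that inactivates Wnt proteins (r = 0.96). SP7 was closest to the formyl peptide receptor FPR2 (r = 0.98) and the centromere gene CENPS (r = 0.97). RUNX2 was closest to U2SURP (r = 0.98) and KLHL2 (r = 0.97), and RUNX1 to CDHR2 (r = 0.97) and ETV6, an ETS factor of blood cells (r = 0.96). The highest r of a gene with any other had a median of 0.975 over all genes, so such values are common with 8 arrays.

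Among the 23 measured of 28 other jaw and bone transcription factors, 1 rose and 1 fell in each of D2, D6 and DT6 against C. ALX1, a homeobox factor of the face, had 6.35 and 7.53 in C and 8.28 to 9.12 in defect tissue. It rose by 2.17 ± 0.33 in D2 (adjusted p = 0.0068), 1.84 ± 0.33 in D6 and 1.62 ± 0.33 in DT6. LHX8, a LIM homeobox factor of jaw and tooth mesenchyme, had 8.95 and 8.66 in C and 7.41 to 7.86 in defect tissue. It fell by 1.16 ± 0.19 in D2 (adjusted p = 0.00897), 1.23 ± 0.19 in D6 and 1.17 ± 0.19 in DT6. The ALX1 rise in D2 passed whichever array was left out. Its D6 and DT6 rises passed in 3 of 8 such fits each, and not without C array 1, either D2 array or either array of the group itself. LHX8 passed in 5, 5 and 7 of 8, and not without C array 1 in any of the comparisons, either D2 array in D2, or C array 2 or D6 array 1 in D6. The list medians were −0.19, −0.11 and −0.17, where the medians of all genes were −0.01, 0.01 and −0.01. In the mean of the 3 defect groups against C, DLX1 (−0.70 ± 0.18) and DLX2 (−0.56 ± 0.14) also fell, each in 2 of 8 fits with an array left out, DLX1 without D6 array 2 or DT6 array 1 and DLX2 without D2 array 2 or DT6 array 1. In this list 7 of 23 genes lay below both C arrays in every defect array, where 10.5% of all genes did, and 3 lay above, where 12.8% did.

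RUNX factors act with CBFB, their common partner, and with activators and repressors such as HEY1 and the histone deacetylases. Of 18 measured of 24 such genes, HEY1, a Notch target, rose in D2 by 0.71 ± 0.18 (adjusted p = 0.0433), and in 3 of 8 fits with an array left out, those without C array 2 or either DT6 array. None passed in limma in D6 or DT6 against C, where 3 genes each had an unadjusted p under 0.05. TCF7, a Wnt effector, differed by −0.47 ± 0.18 in D6 and −0.53 ± 0.18 in DT6, HDAC5 by 0.39 ± 0.17 in D6 and TLE2 by −0.35 ± 0.15 in DT6. The list medians were −0.07, −0.09 and −0.05 in D2, D6 and DT6.

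BMP ligands and receptors, acting through SMAD proteins, stand upstream of the MSX and DLX genes. The list held these together with ID genes, which respond to BMP, and BMP inhibitors such as NOG and SMAD7. Its medians therefore mix genes of opposite action and do not measure BMP input. Of 21 measured of 23, BMP6 alone passed: it fell by 0.96 ± 0.16 in D2 (adjusted p = 0.0083) and 0.72 ± 0.16 in DT6 (adjusted p = 0.047), in 6 and 2 of 8 fits with an array left out. The D2 call ended without either D2 array, and the DT6 call held only without either D6 array. In D6 against C 0 passed in limma and 5 had an unadjusted p under 0.05. The largest differences there were 0.58 ± 0.28 in the receptor gene BMPR1B (unadjusted p = 0.0706) and 0.52 ± 0.18 in BMP4 (unadjusted p = 0.0175). The list medians were −0.27 in D2, −0.08 in D6 and −0.14 in DT6. In the mean of the defect groups against C, BMP2 also fell, by 0.53 ± 0.13 (adjusted p = 0.0386), in 3 of 8 such fits, those without D6 array 2 or either DT6 array.

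The listed osteoblast products averaged 9.17 and 9.41 in C, 9.83 and 9.67 in D2, 9.75 and 9.84 in D6, and 9.89 and 9.37 in DT6. The D2 and D6 arrays lay above both C arrays, while DT6 array 2 lay between them. Of 20 measured of 22, 16 had a difference above 0 in D2, 17 in D6 and 16 in DT6, where 48.1%, 51.6% and 48.6% of all genes did. The list medians were 0.51, 0.43 and 0.19. Few passed. MMP13, a collagenase of osteoblasts and chondrocytes that RUNX2 activates, had 9.95 and 9.99 in C and 11.01 to 12.41 in defect tissue. It rose by 1.21 ± 0.26 in D2, 2.10 ± 0.26 in D6 and 2.07 ± 0.26 in DT6 (adjusted p = 0.0238, 0.0112 and 0.00373), in 4, 5 and 7 of 8 fits with an array left out. These calls ended without C array 1 in each group, without C array 2 or either D2 array in D2, and without C array 2 or D6 array 1 in D6. The phosphate transporter SLC20A2 fell by 1.00 ± 0.19 in D2 and 0.86 ± 0.19 in DT6, in 4 and 3 of 8 such fits. The vitamin D receptor VDR rose by 0.87 ± 0.16 in DT6, in 3 of 8. The SLC20A2 call in D2 ended without any C or D2 array, and both DT6 calls without any C or D2 array or DT6 array 2.

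In DT6 array 2, where SP7, DLX3, DLX6, MSX1 and MSX2 had their lowest values of the 8 arrays, the osteoblast products were split. Of the 20 genes 9 had their lowest value of the 8 arrays there and 4 their highest. ALPL, the alkaline phosphatase, was lowest, at 9.64 against 10.14 to 11.16 in the other arrays, as were the collagen genes COL1A1 and COL1A2. The 4 highest there were SPP1 (osteopontin) at 13.42, ENPP1 at 10.06, MMP13 at 12.41 and VDR at 7.73. IBSP, bone sialoprotein, was 11.93 there, above both C arrays at 10.02 and 11.55. PHOSPHO1, a phosphatase of matrix vesicles, was 8.26 there and 10.11 in DT6 array 1, with 8.06 and 8.39 in C. The genes named here were chosen after their values were seen. The same array had the highest osteoclast mean, 8.67 over 15 genes against 7.05 to 8.22, and the highest myeloid mean, 8.37. Without this array the MSX2 difference in DT6 against C was −1.22. The part of these cells in the values of SP7, DLX3, DLX6, MSX1 and MSX2 was not tested.

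The 8 osteocyte genes averaged 8.34 and 8.51 in C, 7.27 and 7.42 in D2, 7.68 and 8.16 in D6, and 8.37 and 7.73 in DT6. In that list 1 rose and 3 fell in D2 against C, 1 rose and 1 fell in D6, and 1 rose in DT6. Of 8 genes of dividing cells 7 rose in D2, 3 in D6 and 2 in DT6. Of 15 osteoclast genes 1, 3 and 4 rose. Of 15 fibroblast and periodontal ligament genes 4 rose in D2 and 1 fell in DT6, of 13 chondrocyte genes 2 rose and 2 fell in D2 and 1 fell in each of D6 and DT6, and of 7 enamel and dentin genes 1 rose in D2 and DT6 and 1 fell in each group. The part of any of these cells in the members' values was not tested.

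**Figure D4:**
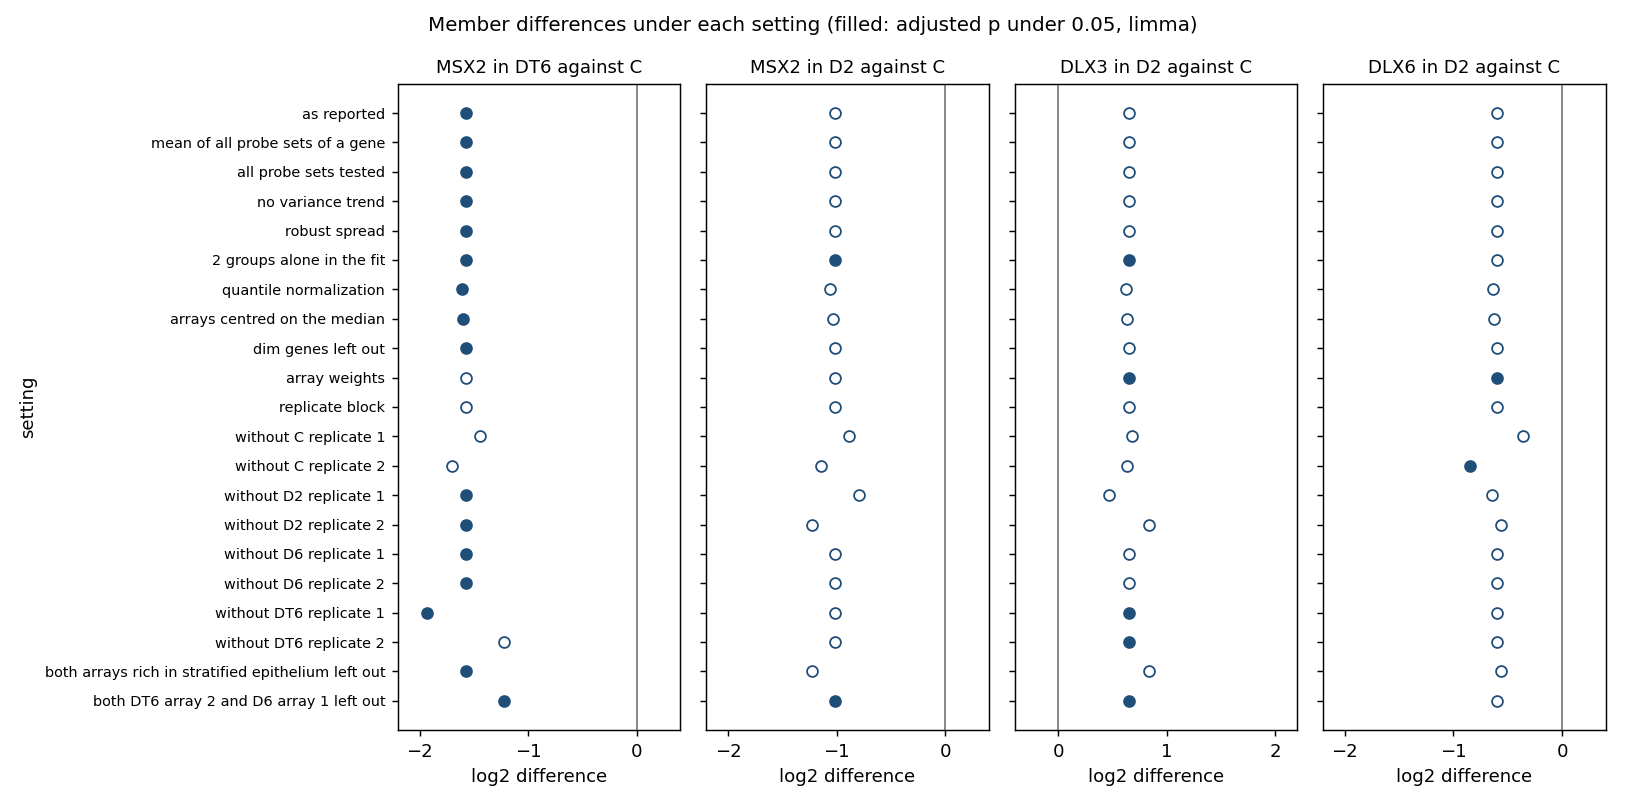
Log2 difference (horizontal axis) of MSX2 in DT6 and in D2, and of DLX3 and DLX6 in D2, each against C, under each way of fitting the data (vertical axis), with filled points where the adjusted p is below 0.05. Most alternatives leave the means of both groups as they are. The differences keep their sign under all 20, from −1.93 to −1.22 for MSX2 in DT6, while the calls come and go.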

How the data were processed

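Values came from a single deposited table of 22708 probe sets in 8 arrays. The labels name Affymetrix whole-transcript arrays and a biotin label, while the summarisation, the normalization and the log base were not given in the sources used here. The deposited values were taken as log2 and as normalized between arrays, because they ran from 0.914 to 14.5 with like medians.

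Probe sets with 1 gene symbol (16545) were kept, the brightest for each of 15947 genes. Of the 8 measured members 6 had an identifier in the RefSeq table. All arrays entered 1 limma 3.58.1 fit (R 4.3.3), with lmFit on group means, eBayes with a variance trend and 4 residual degrees of freedom, checked on simulated data. Arrays have no depth: their number limits the precision. The members were given, and the lists were chosen with earlier results of these data known. Every member was named in every comparison, the 2 genes most correlated with each, and from each list up to 4 genes that passed or, with none, up to 2 with the largest difference. Alternatives changed the probe set kept, the features tested, the variance model, the arrays and groups in the fit, the normalization, a filter on dim genes, array weights and a replicate block. The 14 lists were described by counts and medians. No sequence table was used here.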

Additional observations from a re-analysis of the deposited data

How the results depend on the processing

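Over the 6 planned comparisons, 920 of 960 alternative member values kept their direction and side of the threshold, 10 newly passed, 5 no longer passed and 25 changed sign, all 25 uncalled. Most of these alternatives left the means of both groups as they were and so could not change the direction. The 920 is therefore no measure of how stable the directions are. The share of all genes that passed also moved with the setting, as the ranges below show for all but the F test. The member counts that follow are not set beside that share and are no result about the members. In D2 against C the members called were 0 as reported, 2 with both groups alone in the fit (DLX3, MSX2), 1 with quantile normalization (RUNX2), 2 with array weights (DLX3, DLX6) and 0 to 1 with an array left out. In DT6 against C 1 was called as reported, 0 with array weights, 0 with the replicate block and 0 to 1 with an array left out. The F test called 0 as reported and 0 to 2 with an array left out. The defect mean against C called 1 as reported, 2 with robust spread, 3 with quantile normalization, 2 with median centring, 2 with dim genes left out and 0 to 2 with an array left out. Chosen after seeing the data, leaving out both DT6 array 2 and D6 array 1 called 2 in D2 against C and 1 in the F test. Leaving out both epithelium-rich arrays called 1 in the F test.

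Whether the replicate numbers pair the arrays is not given in the labels. Deviations of same-numbered arrays correlated between −0.26 and 0.19 over the group pairs. This cannot decide the question, because uneven tissue makeup also enters these deviations. With the replicate block MSX2 in DT6 against C had an adjusted p of 0.0544.

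Signs changed as follows, and the cause was not tested. DLX6 in DT6 against D2 was −0.0053 with quantile normalization. Without the epithelium-rich arrays MSX1 in D6 against C was 0.15, RUNX2 in D6 against D2 −0.0023, DLX6 in DT6 against D2 −0.034, and in DT6 against D6 RUNX1 −0.00011 and DLX5 −0.15. Without DT6 array 2 and D6 array 1 MSX1 in D6 against C was 0.15, DLX3 in DT6 against C 0.086, and in DT6 against D6 RUNX1 −0.034, RUNX2 −0.039, SP7 0.10 and DLX5 −0.080. With an array left out, the ranges in DT6 against C were −0.32 to 0.086 for DLX3 and −0.32 to 0.52 for SP7. In DT6 against D6 they were −0.15 to 0.42 for DLX5, −0.00011 to 0.19 for RUNX1 and −0.63 to 0.20 for SP7. In D6 against D2 they were −0.075 to 0.29 for MSX1, −0.38 to 0.42 for MSX2 and −0.048 to 0.21 for RUNX2. DLX6 in DT6 against D2 ran from −0.056 to 0.076 and MSX1 in D6 against C from −0.22 to 0.15.

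Over all alternatives, the genes past the threshold ran from 310 to 1940 in D2 against C (1339 as reported), 0 to 683 in D6 (280, with 0 without C array 1) and 127 to 719 in DT6 (484). They ran from 145 to 482 in D6 against D2 (268), 0 to 24 in DT6 against D2 (0), 135 to 318 in DT6 against D6 (243) and 90 to 1863 in the defect mean against C (1337). In fits with an array left out the lone array is assumed to vary like the other groups. With 2 arrays a group, only differences well above the replicate spread could pass.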
